A study of Mus musculus with 13 samples.

Results

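Interferon response and major histocompatibility complex (MHC) class I genes were followed through mouse abdominal epidermis in pregnancy, after birth and after loss of Tbx3. A list of 31 genes was chosen by name: 3 class I chains, 3 peptide loading genes, 5 immunoproteasome genes, 5 transcription regulators, 3 nucleic acid sensors, and 12 antiviral effectors and modifiers. All 31 were found among the 21950 genes of the bulk table and the 28693 genes of the single-cell matrices. The bulk samples were 9 libraries of sorted interfollicular basal cells (CD49f+, CD34-) from C57BL/6 mice, in 3 groups of 3. The first group was Tbx3 conditional knockout (cKO) at gestation day 16 (dpc16), with K14creERT2, a tamoxifen-inducible recombinase under the keratin 14 promoter, and Tbx3flox/flox alleles. The other groups were wild type (WT) at dpc16 and WT non-pregnant (NP). The sources used here do not say whether the bulk WT mice received tamoxifen. The single-cell samples were 4 libraries of whole epidermis, 1 each for NP, dpc16, and for 6 and 40 days after birth (dpp6 and dpp40), all from tamoxifen-treated Tbx3creERT2; R26H2B EGFP mice on C57BL/6. The sources used here give no ages and no number of animals per library, nor which part of Tbx3 is deleted. Columns headed WT were taken as dpc16.

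Type I and type II interferons bind cell surface receptors and act through Janus kinases and STAT proteins. A complex that holds STAT2 and IRF9 binds the interferon-stimulated response element, and the gamma-activated site is another element of the response. MHC class I molecules show peptides at the cell surface: the immunoproteasome cuts the peptides, TAP1 and TAP2 carry them into the endoplasmic reticulum, tapasin helps load them, and a heavy chain with beta-2 microglobulin presents them. NLRC5 and IRF1 drive class I genes. Keratinocytes have a basal class I level and raise it in response to interferons.

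Promoter windows from 250 bases before to 50 after the RefSeq transcription start (GRCm38.p6) were found for 26 of the 31 members. Zbp1, Usp18, Tap2, Ifi27 and Nlrc5 were not among them. The 26 members had 31 windows in all, and a member counts if any of its windows holds a match. The core of the interferon-stimulated response element was searched as GAAA, any 2 bases and GAAA again on both strands. It was present for 12 of the 26 members (46.2%), against 3.44% of all 32851 promoter windows. A share of members and a share of windows are not like for like. The gamma-activated site, searched as TTCNNNGAA on both strands, was present for 7 of the 26 members, against 8.30% of all windows. Among members with a window, the response element core was found for 7 of 10 antiviral members and both sensors. It was found for none of the 2 peptide loading members and for 1 of 3 class I chains, B2m. A match is a run of letters and not a measured binding site. The windows of 4 members are shown because their transcripts behaved differently in this tissue: B2m was among the highest members, Ifitm3 was high and fell with Tbx3 loss, Isg15 was low and found in few cells, and Ifit3 was almost absent. Capitals mark the matches to the response element core, read on either strand.
Isg15: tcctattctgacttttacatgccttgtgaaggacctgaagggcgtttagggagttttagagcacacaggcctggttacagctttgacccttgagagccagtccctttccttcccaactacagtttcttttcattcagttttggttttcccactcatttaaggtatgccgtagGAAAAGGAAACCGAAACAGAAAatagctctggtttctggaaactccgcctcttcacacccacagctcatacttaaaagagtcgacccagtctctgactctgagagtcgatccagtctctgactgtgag
Ifit3: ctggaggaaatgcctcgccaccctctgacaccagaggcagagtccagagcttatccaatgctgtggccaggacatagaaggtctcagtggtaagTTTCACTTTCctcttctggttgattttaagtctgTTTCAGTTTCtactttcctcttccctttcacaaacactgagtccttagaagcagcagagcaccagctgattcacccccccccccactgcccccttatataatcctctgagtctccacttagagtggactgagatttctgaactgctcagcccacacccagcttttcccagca
Ifitm3: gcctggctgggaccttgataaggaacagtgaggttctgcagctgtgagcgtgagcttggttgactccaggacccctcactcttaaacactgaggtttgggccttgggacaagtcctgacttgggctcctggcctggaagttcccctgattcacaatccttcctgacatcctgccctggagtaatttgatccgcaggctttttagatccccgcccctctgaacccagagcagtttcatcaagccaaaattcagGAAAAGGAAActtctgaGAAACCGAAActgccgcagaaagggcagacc
B2m: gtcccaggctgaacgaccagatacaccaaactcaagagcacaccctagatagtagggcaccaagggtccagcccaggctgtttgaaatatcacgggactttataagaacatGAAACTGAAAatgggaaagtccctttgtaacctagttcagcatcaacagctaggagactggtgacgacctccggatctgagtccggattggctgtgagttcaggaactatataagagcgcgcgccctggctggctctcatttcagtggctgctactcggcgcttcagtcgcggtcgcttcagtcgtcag
The Isg15 window lies at chr4:156200769-156201068 on the minus strand, and its 3 matches overlap, the first starting 78 bases before the start site. The Ifit3 window lies at chr19:34583279-34583578 on the plus strand, with matches starting 156 and 122 bases before the start. In the Ifitm3 window, chr7:141010695-141010994 on the minus strand, both matches lie after the start, at bases 3 and 20. The single B2m match, in chr2:122147437-122147736 on the plus strand, starts 139 bases before the start. Tap1 and Psmb9 are divergent neighbours on chromosome 17, and their windows share 275 bases on opposite strands.

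Bulk values are FPKM, fragments scaled by transcript length and library size, and their sequencing depth is unknown. Tbx3 itself had 4.81, 1.65 and 4.89 FPKM in cKO, against 16.96, 15.29 and 22.98 in WT dpc16, and 8.96, 6.38 and 8.12 in NP libraries. The sort markers were as labelled: Itga6, which encodes CD49f, lay between 277 and 443 FPKM, and Cd34 between 0 and 2.23 FPKM. Of immune cell genes, Ptprc lay between 0 and 0.495 FPKM and Cd207 between 0.292 and 1.99, and the 10 Langerhans and myeloid markers summed to 2.95 to 13.4 FPKM per library. In bulk RNA, fewer cells of a type and less RNA per cell cannot be told apart. No label ties a library to its own mouse, and each p-value rests on the spread between libraries alone, which may be technical.

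One cKO library stood apart over the H2 region of chromosome 17, which holds the class I genes. It had 3 genes more than 4-fold below the other 8 libraries, among genes with at least 5 FPKM, and 2 of the 3, H2-T22 and H2-Eb1, lay between the ends of this region (mm10 chr17:33996017-37274484). H2-T22, a nonclassical class I gene, had 125, 175 and 11.2 FPKM in the 3 cKO libraries, against 81.3 to 95.9 in WT dpc16 and 70.4 to 76.4 in NP libraries. H2-T23, the mouse Qa-1 gene, had 268, 293 and 41.2 FPKM in cKO, against 145 to 175 in WT dpc16. The class II gene H2-Eb1 had 26.9, 55.7 and 0.883 FPKM in cKO, against 7.46 to 12.3 in WT dpc16. The third library was thus lower than the other two in each of these genes. Class I genes resemble each other and differ between mouse strains, so reads can be split among them, and whether this library carries other H2 alleles was not tested. Results that rest on it are given with and without it.

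By the same rule NP library 1 stood further apart, with 73 genes more than 4-fold above the other 8 libraries and none below, where the other 8 had 0 to 7 such high genes each. Of the 73, 36 were histone cluster genes and none was a member. Dppa5a and Zfp42, markers of pluripotent stem cells, had 85.7 and 22.6 FPKM in this library and at most 0.403 and 0.333 in any other. Eif2s3y, a gene of the Y chromosome, had 6.45 FPKM there and at most 0.0378 elsewhere. This library enters both contrasts with NP and the estimate of the spread. Without it, 1 member was called in cKO against WT dpc16 (Ifitm3, adjusted p = 0.0326), 0 in WT dpc16 against NP and 1 in cKO against NP (Ifitm3, adjusted p = 0.0443), with medians of 0.02, -0.15 and -0.11.

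Across the bulk contrasts few members changed. A total of 26 of the 31 passed the filter of a mean of 1 FPKM over the 9 libraries and were tested with limma on log2(FPKM + 1), with p-values adjusted by Benjamini-Hochberg over all 11497 genes tested. In cKO against WT dpc16, 1 member fell at an adjusted p under 0.05 and none rose, against 0.922% of all genes that fell, 1.23% that rose and 2.15% called in all. At an unadjusted p under 0.05 there were 5 of 26, against 17.4% of all genes. The groups did not overlap in 3 higher and 4 lower members, against 13.3% and 12.9% of all genes, or 26.2% together. The median member difference was 0.02 on the log2 scale, with 13 members above and 13 below 0, and the median of all genes was 0.01. In WT dpc16 against NP, limma called 0 members, against 0.13% of all genes (0.104% higher and 0.0261% lower), and 2 of 26 had an unadjusted p under 0.05, against 9.05%. Here no member was higher and 4 were lower without overlap, against 6.82% and 8.77% of all genes, or 15.6% together, and the median was -0.06, beside -0.03 for all genes. In cKO dpc16 against NP, where genotype and pregnancy differ together, 2 members fell and none rose, against 2.91% of all genes that fell, 2.76% that rose and 5.66% called in all. At an unadjusted p under 0.05 there were 5, against 23.8% of all genes. In 2 higher and 3 lower members the groups did not overlap, against 12.2% and 14.2% of all genes, or 26.4% together. Each group enters 2 of these contrasts, so the contrasts are not independent.

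**Figure D1:**
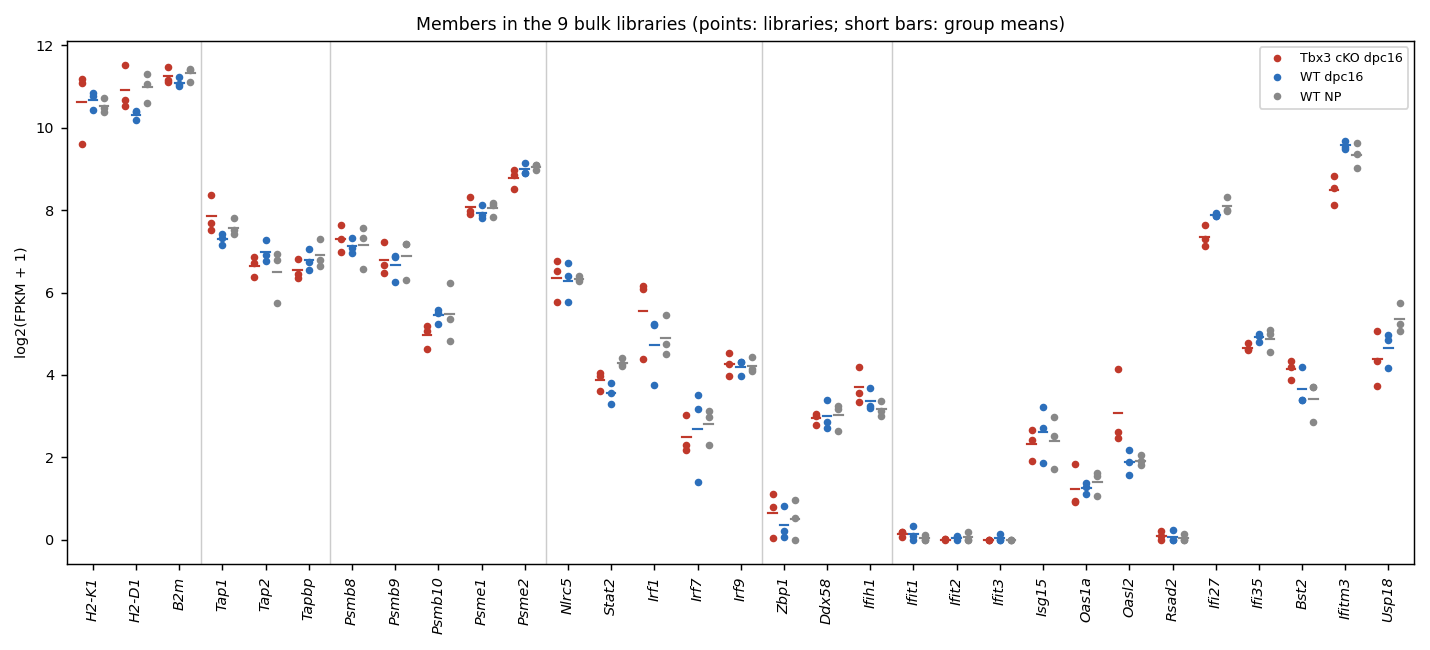
Values of log2(FPKM + 1) of the members in each of the 9 bulk libraries, 1 point per library, with cKO dpc16 left of WT dpc16 and NP. Short bars mark the group means. Ifitm3 shows 277 to 455 FPKM in cKO, below the 717 to 815 of WT dpc16 and the 519 to 784 of NP libraries.

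**Figure D2:**
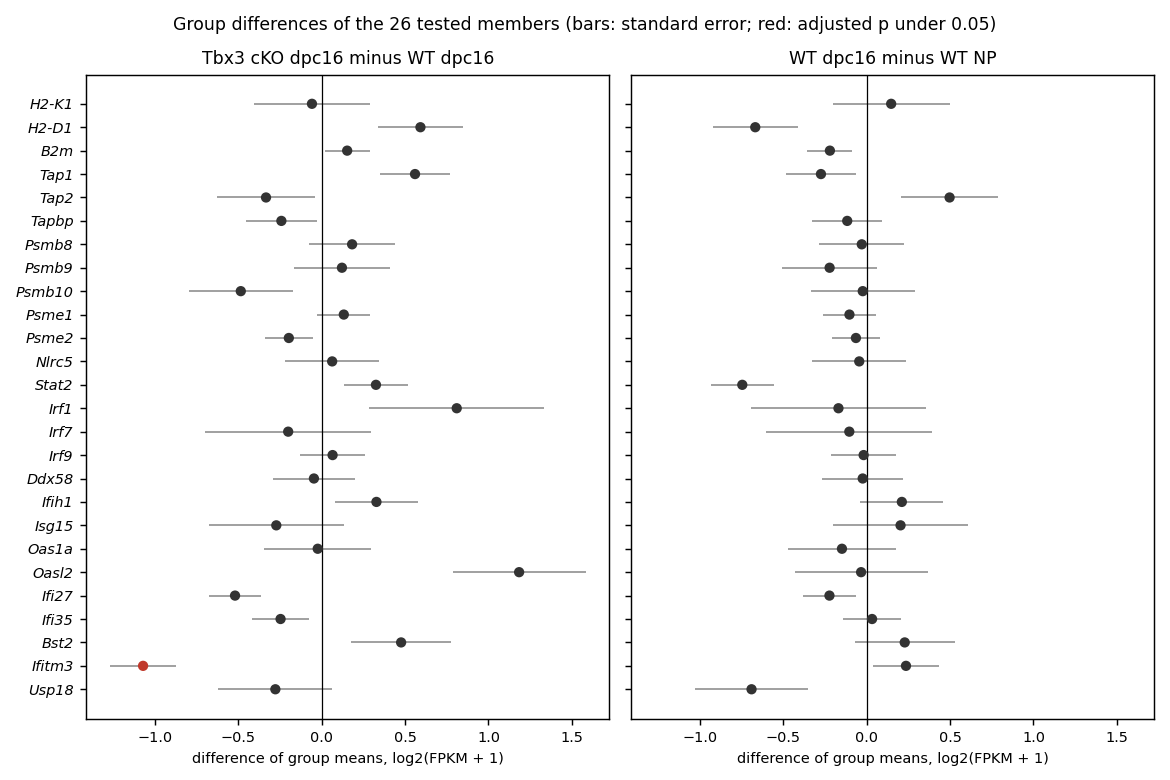
Difference of group means of log2(FPKM + 1) for the 26 tested members, with bars of 1 standard error from limma. The contrasts shown are cKO against WT dpc16 and WT dpc16 against NP. Ifitm3 stands at -1.07 in cKO against WT dpc16 and 0.23 in WT dpc16 against NP, and Oasl2 at 1.18 and -0.03.

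The class I chains were among the most abundant members and none changed at an adjusted p under 0.05. B2m (mm10 chr2:122147686-122153083), the light chain shared by class I molecules, had 2202, 2821 and 2282 FPKM in cKO, 2040.4, 2376 and 2129 in WT dpc16, and 2695, 2749.7 and 2209 in NP. The 3 groups overlapped, with a difference of 0.15 (SE 0.14, adjusted p = 0.617) for cKO against WT dpc16 and -0.22 (SE 0.14, adjusted p = 0.679) for WT dpc16 against NP. H2-D1 (chr17:35262730-35267499), one of the 2 classical heavy chains in the list, had 1621, 1469.8 and 2952 FPKM in cKO, 1345, 1317 and 1158 in WT dpc16, and 1549, 2111 and 2526 in NP. All WT dpc16 libraries lay below those of both other groups, but neither difference passed the adjusted threshold: 0.59 (SE 0.26, adjusted p = 0.268) for cKO and -0.67 (SE 0.26, adjusted p = 0.438) against NP. The highest H2-D1 value came from the cKO library that stood apart, and without it the cKO difference was 0.28 (adjusted p = 0.482). H2-K1 (chr17:33996017-34000347), the other heavy chain, had 2308, 2174 and 769 FPKM in cKO, 1739, 1815 and 1383 in WT dpc16, and 1424, 1337 and 1692 in NP. The cKO libraries were thus both the highest and the lowest, and the difference of -0.06 (SE 0.35, adjusted p = 0.963) became 0.45 (SE 0.16, adjusted p = 0.156) without that library.

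**Figure D3:**
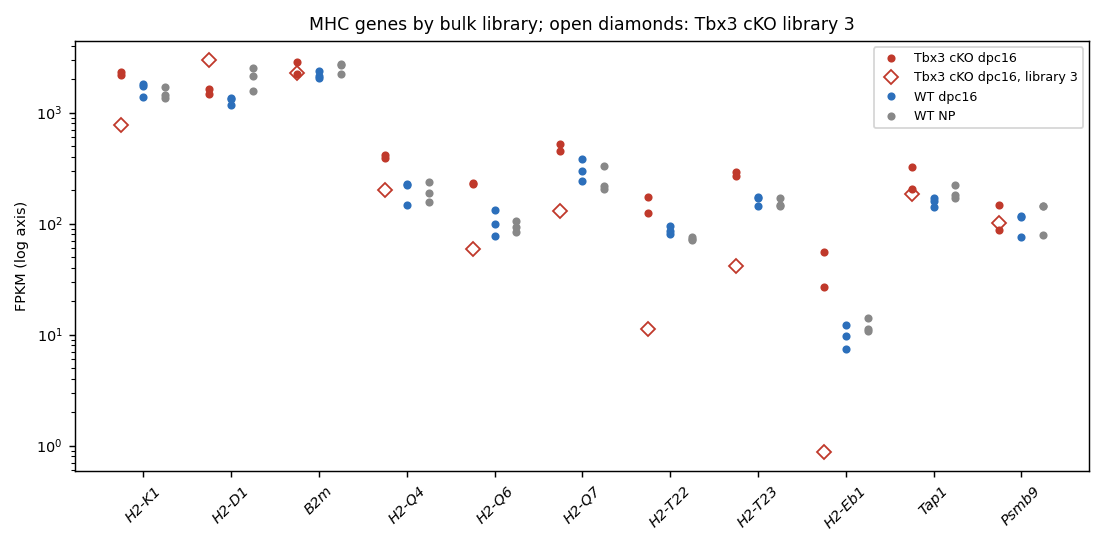
FPKM of genes of the H2 region, and of B2m on chromosome 2, in each bulk library on a log axis. Each library is 1 point, with cKO dpc16 left of WT dpc16 and NP. The cKO library that stands apart has 11.2 FPKM of H2-T22 and 769 of H2-K1, each the lowest of the 9 libraries, and 2952 of H2-D1, the highest.

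Peptide loading genes also gave no call. Tap1, a subunit of the peptide transporter, had 206, 326 and 183 FPKM in cKO, 141, 158 and 171 in WT dpc16, and 169, 181 and 222 in NP. All cKO values lay above all WT dpc16 values, with a difference of 0.56 (SE 0.21, unadjusted p = 0.0241, adjusted p = 0.205). Tap2, its partner, had 115, 104 and 82.6 FPKM in cKO, 154, 109 and 118 in WT dpc16, and 110.3, 52.2 and 121 in NP, and the groups overlapped. Tapbp, which encodes tapasin, lay between 80.7 and 156 FPKM with overlapping groups.

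The immunoproteasome genes were expressed throughout and none was called. Psme2, a subunit of the PA28 activator, was the highest, with 463, 505 and 365 FPKM in cKO, 479, 566 and 474 in WT dpc16, and 504, 540.4 and 541 in NP. Its difference in cKO against WT dpc16 was -0.20 (SE 0.14, adjusted p = 0.526). Psmb10, a catalytic subunit, had 23.9, 35.3 and 32.3 FPKM in cKO, 44.6, 46.8 and 37.0 in WT dpc16, and 40.0, 27.1 and 74.4 in NP. The cKO values lay below all WT dpc16 values, at -0.49 (SE 0.31, adjusted p = 0.467). Psmb8, Psmb9 and Psme1 overlapped between all groups, with differences between -0.22 and 0.18. The 5 constitutive counterparts gave no call in cKO against WT dpc16. In 4 of them cKO lay lower without overlap and in 0 higher, against 12.9% and 13.3% of all genes. In cKO against NP, 4 were lower and 1 higher without overlap, against 14.2% and 12.2%, again with no call. Psmb5, the constitutive subunit that Psmb8 replaces, had 58.9, 75.3 and 74.0 FPKM in cKO, against 102, 107 and 104 in WT dpc16, at -0.59 (adjusted p = 0.0658).

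Among the transcription regulators, Stat2 had the smallest unadjusted p of all members in the pregnancy contrast. It had 14.6, 15.5 and 11.3 FPKM in cKO, 12.9, 10.8 and 8.79 in WT dpc16, and 20.2, 17.6 and 18.4 in NP. WT dpc16 lay below NP without overlap, by -0.75 (SE 0.19, unadjusted p = 0.00275), which did not pass adjustment (adjusted p = 0.212). Irf1, a transcription factor induced by interferons and other stimuli, had 70.8, 66.4 and 20.0 FPKM in cKO, 36.7, 36.2 and 12.5 in WT dpc16, and 21.8, 25.96 and 42.9 in NP. In both dpc16 groups the third library was the lowest, and the cKO difference was 0.81 (SE 0.52, adjusted p = 0.468), or 1.39 (SE 0.45, adjusted p = 0.133) without the library that stood apart. Nlrc5, the class I transactivator, had 91.0, 107 and 53.8 FPKM in cKO, 82.9, 104 and 53.3 in WT dpc16, and 76.9, 79.4 and 83.2 in NP. Its lowest values were again those of the third library in both dpc16 groups, and the groups overlapped. Irf9 lay between 14.8 and 22.2 FPKM, and Irf7, which amplifies type I interferon responses, between 1.66 and 10.4 FPKM.

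The nucleic acid sensors were low. Ifih1, which encodes the RNA sensor MDA5, had 10.9, 17.2 and 9.20 FPKM in cKO, 8.16, 8.44 and 11.9 in WT dpc16, and 7.68, 7.01 and 9.38 in NP, with overlap between cKO and WT dpc16 (0.33, SE 0.25, adjusted p = 0.549). Ddx58, which encodes RIG-I, had 7.27, 5.93 and 7.02 FPKM in cKO, 9.59, 5.55 and 6.32 in WT dpc16, and 8.09, 5.23 and 8.43 in NP, with no separation of groups. Zbp1, a sensor of Z-form nucleic acids, reached at most 1.18 FPKM and was not tested.

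The called members were both antiviral effectors. Ifitm3 (chr7:141009586-141010770 on the minus strand), a membrane protein that blocks virus entry, had 277, 455 and 369 FPKM in cKO, 717, 815 and 742 in WT dpc16, and 519, 654 and 784 in NP. All cKO libraries lay below all others. Ifitm3 fell by 1.07 on the log2 scale in cKO against WT dpc16 (SE 0.20, adjusted p = 0.0279) and by 0.84 in cKO against NP (SE 0.20, adjusted p = 0.0404). WT dpc16 overlapped NP at 0.23 (SE 0.20, adjusted p = 0.784). The fall against WT dpc16 passed in 11 of 18 alternative analyses, with adjusted p between 0.0159 and 0.119. It did not pass without any 1 of the 3 WT dpc16 libraries (adjusted p = 0.0810, 0.119 and 0.0819) or without the first cKO library (0.0846). Without the cKO library that stood apart it was -1.09 (adjusted p = 0.0408). Ifi27 (chr12:103434211-103440239), an interferon-inducible membrane protein, had 138, 158 and 197 FPKM in cKO, 229, 242 and 229.5 in WT dpc16, and 256, 251 and 317 in NP. The 3 groups did not overlap, and Ifi27 fell by 0.74 in cKO against NP (SE 0.16, adjusted p = 0.0278), a call kept in 10 of 18 alternatives (adjusted p 0.0165 to 0.0967). Its cKO against WT dpc16 difference was -0.52 (SE 0.16, adjusted p = 0.120). Leaving out the second WT dpc16 library, any 1 of the 3 NP libraries, or the first or second cKO library ended the Ifi27 call (adjusted p 0.0508 to 0.0967). Ifitm3 kept its call against NP in 8 of 18 alternatives (adjusted p 0.0255 to 0.125). It lost it without any 1 WT dpc16 library, NP library 2 or NP library 3, cKO library 1 or the cKO library that stood apart (adjusted p = 0.0640 without the last).

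Markers of other layers and cell types differed beside these genes in cKO. The 10 basal markers summed to 14558 to 21984 FPKM in cKO and 25375 to 26810 in WT dpc16, largely through Krt5 and Krt14, while the basal gene Dst rose to 525 to 718 FPKM in cKO, against 271 to 290 in WT dpc16 (adjusted p = 0.00608). The 8 spinous markers summed to 3309.8 to 4724 FPKM in cKO and 4988 to 14029.5 in WT dpc16, and Krt1 fell to 160 to 427 FPKM in cKO, against 1065 to 2027 in WT dpc16 (adjusted p = 0.00943). The 10 upper follicle markers had a median difference of 0.64 in cKO against WT dpc16, with 7 above 0. Without overlap, 4 were higher and 1 lower, against 13.3% and 12.9% of all genes. They summed to 3409 to 4551 FPKM in cKO and 3162 to 3591 in WT dpc16. The 10 tested granular markers had a median of 0.44, and no gene of either list passed adjustment. Of 4 tested smooth muscle and pericyte markers 1 rose, against 1.23% of all genes. This was Mcam, an adhesion molecule, with 26.03, 44.1 and 19.6 FPKM in cKO, against 4.88, 2.99 and 4.43 in WT dpc16 (2.54, adjusted p = 0.00452). The 10 T cell markers in the table summed to 122 to 645 FPKM in cKO, 671 to 855 in WT dpc16 and 309 to 603 in NP, nearly all of it Thy1, while Cd3e lay between 0 and 3.86 FPKM. Thy1 had 119, 643 and 625 FPKM in cKO, against 669, 727 and 853 in WT dpc16, a difference of -1.03 (adjusted p = 0.375), and in single cells basal keratinocyte-like cells also held it, at 148 CPM at dpc16. The part of these markers in the Ifitm3 and Ifi27 differences was not tested.

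Other effectors were lower in abundance and gave no call. Oasl2, a 2'-5' oligoadenylate synthetase-like gene, had 5.15, 16.6 and 4.55 FPKM in cKO, 2.73, 3.57 and 1.996 in WT dpc16, and 2.50, 3.19 and 2.75 in NP. All cKO values lay above the others, at 1.18 against WT dpc16 (SE 0.40, unadjusted p = 0.0139, adjusted p = 0.159). Usp18, which removes ISG15 from proteins and dampens type I interferon signalling, had 12.2, 32.3 and 19.4 FPKM in cKO, 27.6, 30.3 and 16.9 in WT dpc16, and 37.0, 52.3 and 32.2 in NP. WT dpc16 lay below NP without overlap, at -0.69 (SE 0.34, adjusted p = 0.607). Isg15, the ubiquitin-like modifier, had 5.34, 4.34 and 2.78 FPKM in cKO, 8.35, 5.58 and 2.67 in WT dpc16, and 6.84, 2.32 and 4.70 in NP, and Bst2 (tetherin) and Ifi35 lay between 6.22 and 33.2 FPKM. Ifi35 lay lower in cKO than in WT dpc16 without overlap, at -0.25 (adjusted p = 0.509), and the groups of Isg15 and Bst2 overlapped in that contrast. Oas1a lay between 0.891 and 2.60 FPKM. Ifit1, Ifit2, Ifit3 and Rsad2, 4 genes that are typically strongly induced by type I interferon, were at most 0.2599 FPKM in any library and were not tested, and Ifit3 was listed at 0 in 8 of the 9.

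The upstream genes of the pathway were read from lists beside the members. The 11 interferon ligands summed to 0 to 1.77 FPKM in cKO, 0 to 0.279 in WT dpc16 and 0 to 0.0959 in NP libraries, and none could be tested. Of 6 interferon receptor genes, 1 rose in cKO against WT dpc16 and none fell, against 1.23% and 0.922% of all genes. Ifngr1, the ligand-binding chain of the interferon gamma receptor, had 303, 331 and 249.96 FPKM in cKO, 141, 153 and 122 in WT dpc16, and 159.7, 195 and 125 in NP. All cKO values lay above all others, at 1.08 against WT dpc16 (SE 0.18, adjusted p = 0.0202) and 0.89 against NP (SE 0.18, adjusted p = 0.0267). Without NP library 1 the second value was 0.90 (adjusted p = 0.0556). Its partner chain Ifngr2 differed by 0.07 (SE 0.26, adjusted p = 0.939). None of 10 genes that brake the response or 10 tested sensing adaptors and kinases passed adjustment in any contrast. Among the brakes, Socs1, an inhibitor of Janus kinases, had 6.11, 3.52 and 5.204 FPKM in cKO, 9.62, 10.7 and 16.7 in WT dpc16, and 5.59, 2.96 and 5.86 in NP. WT dpc16 lay above both other groups, at -1.16 for cKO against WT dpc16 (adjusted p = 0.0744) and 1.21 for WT dpc16 against NP (adjusted p = 0.193).

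Of 32 tested further interferon-stimulated genes, 1 rose in cKO against WT dpc16, against 1.23% of all genes. Lgals9, which encodes galectin-9, had 62.9, 60.002 and 45.8 FPKM in cKO, 29.4, 33.8 and 22.1 in WT dpc16, and 32.6, 38.4 and 47.2 in NP, with a difference of 0.97 between cKO and WT dpc16 (SE 0.21, adjusted p = 0.0469), which did not pass without NP library 1 (adjusted p = 0.0605). None of 8 tested interferon gamma GTPase and chemokine genes was called, with a median difference of 0.40 in cKO against WT dpc16. Gbp2, a guanylate-binding protein, had 18.4, 21.996 and 6.62 FPKM in cKO, 5.68, 10.7 and 5.80 in WT dpc16, and 12.7, 9.49 and 11.3 in NP. Its difference of 0.89 (adjusted p = 0.273) became 1.38 (adjusted p = 0.0343) without the cKO library that stood apart. Of 15 tested further class I genes and chaperones, Calr alone was called, against 2.15% of all genes called in cKO against WT dpc16. Calr, which encodes calreticulin, a chaperone of the peptide loading complex, had 176, 201 and 205 FPKM in cKO, 308, 386 and 358 in WT dpc16, and 441, 481 and 627 in NP. It fell by 0.85 in cKO against WT dpc16 (SE 0.16, adjusted p = 0.0282) and by 1.40 against NP (SE 0.16, adjusted p = 0.00343), and the 3 groups did not overlap.

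Without the cKO library that stood apart, 5 genes of these lists rose in cKO against WT dpc16 that did not pass with it, Gbp2 and 4 genes of the H2 region. In that comparison 7 of 122 tested genes of the lists were called higher, against 2.06% of all genes. The class I genes H2-Q4, H2-Q6 and H2-T23 differed by 1.04, 1.19 and 0.78 (adjusted p = 0.0488, 0.0254 and 0.0291), and the class II gene H2-Eb1 by 1.90 (adjusted p = 0.0183). H2-Q4 had 412, 389.8 and 202 FPKM in cKO, against 224, 227 and 146 in WT dpc16. H2-Q6 had 226, 233 and 58.6 FPKM in cKO, against 100.04, 132 and 76.6 in WT dpc16. The comparison without it rests on 2 cKO libraries, and leaving it out was chosen after its values were seen. H2-Eb1 was among the genes that set this library apart, and H2-T23 was described as low in it. Leaving the library out raises the cKO means of such genes, so the 7 of 122 beside 2.06% cannot show a rise of the lists.

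Single cells gave the members' levels by cell type. After filters, 6491 NP, 12853 dpc16, 9031 dpp6 and 8552 dpp40 cells were kept, with medians of 4709, 4448, 5014 and 5638 UMIs (unique molecular identifiers, counted transcripts). Cells were clustered without the members and pathway genes, and 18 of 26 clusters could be named from markers. The 8 unnamed clusters, with 11454 of 36927 cells, are called by number or leading genes. Levels are counts per 1000000 UMIs (CPM) of a class in a library. With 1 library a state no test was possible, and intervals cover counting error only. Pairs of libraries shared 75 to 154 cell barcodes.

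UMIs of class I transcripts were counted in every one of these classes, at levels that differed by class. Free RNA can add to such counts, and its part was not tested: the keratin Krt14, which immune cells do not make, stood at 2519 CPM in Langerhans and myeloid-like and 3336 in T cell-like cells, against 8674 in basal cells. B2m averaged 2861 CPM over the 4 libraries in basal keratinocyte-like cells, 2069 in spinous, 3282 in granular, 3625 in upper follicle and 1774 in bulge and outer root sheath-like cells. Of the named classes and unnamed clusters with at least 50 cells, the highest level, 5615, was in an unnamed cluster led by the mitotic genes Cenpa, Cdkn3 and Ccnb2, and the lowest, 1038, in one led by Cldn10, Mfap2 and Fam13a. H2-K1 averaged 1391 CPM in cycling, 1173 in upper follicle, 1036 in basal, 858 in spinous, 664 in bulge and 525 in sebaceous gland-like cells, and 334 in the Cldn10 cluster. H2-D1 averaged 1376 CPM in cycling, 1196 in basal, 917 in spinous, 719 in bulge and 403 in sebaceous gland-like cells. Langerhans-like cells, which present antigen, had 777 CPM of H2-K1 and 989 of H2-D1, below the basal means, while their class II gene H2-Ab1 stood at 8069.5, against 25.9 in basal cells.

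Sebaceous gland-like cells combined low class I with high PA28. They held 731 CPM of Psme2 and 284 of Psme1, against 217 and 140.0 in basal cells, and both genes were highest there of all classes. Their catalytic subunits were low, with 30.2 CPM of Psmb8 and 23.4 of Psmb9, against 187 and 93.1 in basal cells. Psme2 in sebaceous gland-like cells was 791, 701, 772 and 659.6 CPM in NP, dpc16, dpp6 and dpp40 libraries, so all 4 libraries lay above the basal values of 230.0, 221, 220.4 and 198.

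**Figure D4:**
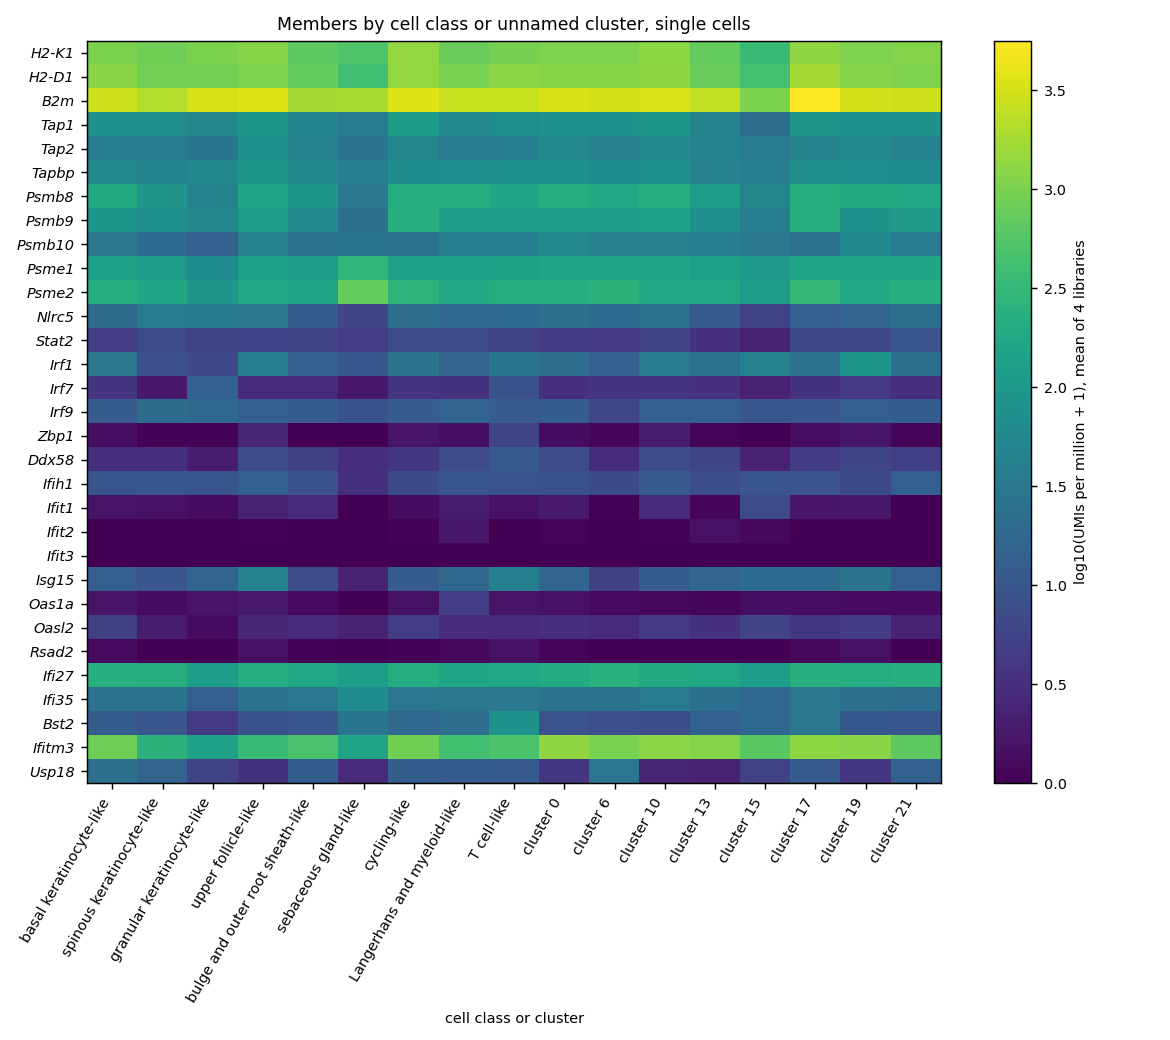
Level of each member by cell class as the mean CPM over the 4 single-cell libraries, on a log colour scale. Ifitm3 is high in basal cells (832) and in the Ccl2 and Sostdc1 cluster numbered 0 (1320) and lower in granular cells (138), Psme2 peaks in sebaceous gland-like cells (731), and Ifit3 is near 0 in every class.

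Ifitm3, the member that fell in bulk cKO, was graded with differentiation. It averaged 832 CPM in basal, 258 in spinous and 138 in granular keratinocyte-like cells. Basal cells were above spinous cells in 4 of 4 libraries, a difference of 1.69 on the log2 scale. After each cell was thinned to 2000 UMIs, 70.9% of basal cells (95% exact interval 69.9% to 71.9%) had an Ifitm3 UMI, against 19.9% of granular cells (17.1% to 22.8%); the unthinned shares were 88.9% and 67.3%. Granular cells are deeper, with a median of 13893 UMIs against 4646 in basal cells. The part of free RNA in the granular share was not tested.

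Usp18 was higher in interfollicular than in upper follicle-like cells. It averaged 22.99 CPM in basal and 14.5 in spinous cells, against 2.56 in upper follicle-like cells, and basal exceeded upper follicle cells in 4 of 4 libraries by 2.94 on the log2 scale. For Isg15 the order was turned, with 12.3 CPM in basal and 45.4 in upper follicle-like cells, of which 1 NP cell gave a large share, as described with that cell. Bst2 was highest in T cell-like cells, at 80.6 CPM, against 11.7 in basal cells, and Irf1 reached 93.3 in a cluster led by the immediate early genes Arc, Egr2 and Atf3.

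Set against spinous cells, 13 of 20 members with enough UMIs were higher in basal cells in all 4 libraries and 2, Nlrc5 and Irf9, were lower. All genes gave 37.6% higher and 34.2% lower. The larger differences were Irf1 at 2.004, Ifitm3 at 1.69 and Psmb8 at 1.09 on the log2 scale, while Nlrc5 stood at -0.79 and Irf9 at -0.84. Against upper follicle cells, 7 of 20 were higher and 10 lower, beside 39.6% and 30.9% of all genes. Against bulge and outer root sheath-like cells, 14 of 19 were higher and 2 lower, beside 22.2% and 42.1% of all genes, with class I chains 0.64 to 0.73 higher in basal cells. The 4 libraries come from different states and are not replicates of a condition.

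Across the states, basal levels of most members stayed within 1.5-fold of NP. In basal cells at dpc16, 0 of 19 members were higher and 1 lower by more than 1.5-fold, against 3.89% and 5.73% of all genes, and the median member ratio to NP was -0.23 on the log2 scale, beside -0.04 for all genes. Within clusters 1, 4 and 5 of the basal class that median was -0.07, -0.13 and 0.16, so the pooled value was further from 0 than any of the 3 and its direction turned in 1. The lower member was Irf9, with 12.9, 7.99, 13.2 and 10.7 CPM in NP, dpc16, dpp6 and dpp40, a dpc16 ratio of -0.66 (95% counting interval -1.14 to -0.23). Within these clusters the Irf9 ratio was -0.38, -0.16 and -1.27, from 16, 11 and 45 NP UMIs. H2-D1 had 1308, 975, 1246 and 1254 CPM and H2-K1 1077, 877, 1080.0 and 1112, so the dpc16 value was the lowest of 4 for both, with ratios to NP of -0.42 and -0.30. B2m was 2911, 2881, 2766 and 2886 CPM. Tap1 was 86.3, 63.4, 72.5 and 75.0 and Tapbp 56.5, 42.0, 70.3 and 64.8 CPM, again lowest at dpc16. The basal class was made of 3 clusters in different shares: cluster 5 held 644 of 1187 NP cells, and cluster 1 held 1756 of 2827 dpc16 cells. Cluster 6, led by Tgm3, Thy1 and Pyy, scored best for basal markers (median log2 0.81) but stayed unnamed. It held 2185 dpc16 and 41 NP cells, so the basal levels given here leave out many basal-scoring dpc16 cells. With cluster 6 added, the median member ratio at dpc16 was -0.12. Within clusters 1, 4 and 5 the H2-D1 ratio of dpc16 to NP was -0.43, -0.28 and -0.26. In bulk, WT dpc16 against NP was -0.67 for H2-D1, 0.15 for H2-K1, -0.28 for Tap1, -0.12 for Tapbp and -0.02 for Irf9. None of these passed adjustment, and H2-K1 went the other way.

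In basal cells neither Ifitm3 nor Psmb8 passed 1.5-fold between dpc16 and NP. Basal Ifitm3 was 720.3, 975, 800.0 and 831 CPM, with a dpc16 ratio of 0.44 (interval 0.39 to 0.49), and 0.63, 0.42 and 0.38 within clusters 1, 4 and 5. Basal Psmb8 was 176, 192, 205 and 176 CPM. In bulge and outer root sheath-like cells at dpc16, Psmb8, Nlrc5 and Ifitm3 were higher than in NP by 0.90, 0.85 and 0.66, and Irf1 stood at -0.62. These are 3 of 18 members higher and 1 lower, against 5.32% and 7.55% of all genes past 1.5-fold. Here the makeup differed as well: cluster 2 held 517 of 727 NP cells and cluster 14 held 487 of 804 dpc16 cells.

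Usp18, Isg15 and Irf1 were higher after birth than in NP in basal cells. At dpp6 and at dpp40, these 3 of 20 members and no others were higher than in NP by more than 1.5-fold and none was lower. Of all genes, 4.16% were higher and 2.69% lower at dpp6, and 2.31% were higher and 1.71% lower at dpp40. Usp18 had 15.01, 17.8, 27.02 and 32.2 CPM in NP, dpc16, dpp6 and dpp40, with ratios to NP of 0.83 (interval 0.48 to 1.22) at dpp6 and 1.07 (0.76 to 1.46) at dpp40. At dpp6 its ratio was 0.93, 1.27 and 0.41 within clusters 1, 4 and 5. At dpp40 it was 0.95, 1.35 and 1.05 in these clusters, and 1.25 in spinous cells. Isg15 had 7.51, 12.5, 14.2 and 15.2 CPM, from 42 UMIs in NP cells, with ratios of 0.88 at dpp6 and 0.97 at dpp40. Within clusters 1 and 5 its dpp40 ratios were 0.26 and 0.31, and in cluster 4 the ratio of 2.58 rests on 4 NP UMIs. Irf1 had 23.9, 16.7, 38.6 and 43.4 CPM, with ratios of 0.68 and 0.85. Its dpp40 ratio was 1.06 in cluster 4 but -0.19 in cluster 1 and -0.67 in cluster 5, so its direction turned between clusters. Shares of cells with a Usp18 UMI at 2000 UMIs were 2.70%, 3.36%, 5.96% and 5.85% of basal cells in NP, dpc16, dpp6 and dpp40, and 0.370% of upper follicle-like cells over all 4 libraries. Unthinned, these were 6.74%, 7.68%, 12.1% and 15.7%, and 1.39%.

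**Figure D5:**
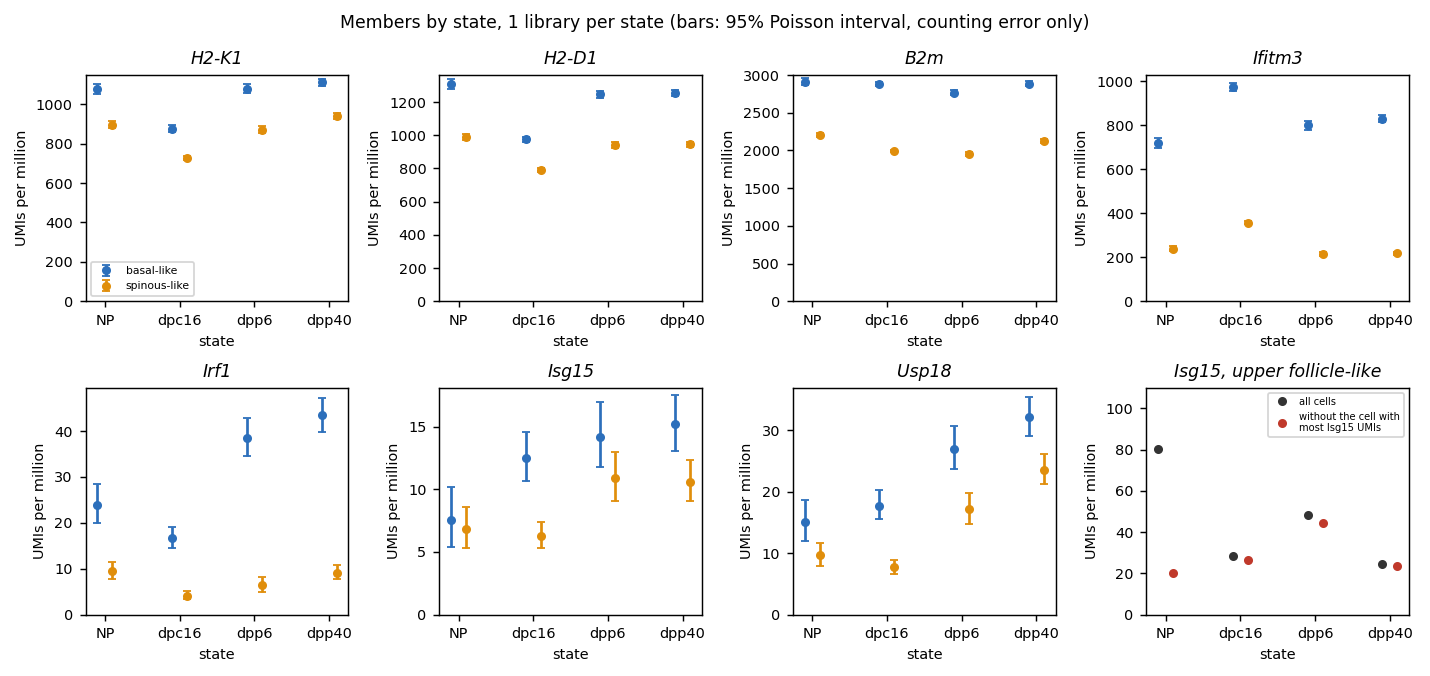
CPM of selected members in basal and spinous keratinocyte-like cells of the NP, dpc16, dpp6 and dpp40 libraries. Bars are exact 95% Poisson intervals that cover counting error only. The last panel, drawn without intervals, shows Isg15 in upper follicle-like cells with and without each library's cell with most Isg15 UMIs. In basal cells Usp18 stands at 15.01, 17.8, 27.02 and 32.2, and H2-D1 at 1308, 975, 1246 and 1254.

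Cells with many interferon-stimulated transcripts were rare. Over 9 inducible members (Ifit1, Ifit2, Ifit3, Isg15, Oas1a, Oasl2, Rsad2, Irf7 and Zbp1), at least 1 was found in 468 NP cells (7.21%), 988 dpc16 cells (7.69%), 973 dpp6 cells (10.8%) and 844 dpp40 cells (9.87%). At least 3 of the 9 were found in 9, 9, 12 and 6 cells. Ifit3 gave 4, 0, 4 and 0 UMIs in the whole NP, dpc16, dpp6 and dpp40 libraries, from 1, 0, 2 and 0 cells. Thinned to 2000 UMIs, 2.36% of all cells had an Isg15 UMI, with 5.49% of upper follicle-like (4.76% to 6.29%), 2.36% of basal (2.04% to 2.72%), 7.35% of T cell-like and 0.316% of sebaceous gland-like cells. The unthinned shares were 6.03% over all cells, 12.5%, 4.89%, 17.3% and 0.949%, and sebaceous gland-like cells had a median of 8246 UMIs against 4646 in basal cells.

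A single NP cell in the upper follicle-like class held most of the Isg15 and Irf1 UMIs of that class in the NP library. It had 28719 UMIs and 4222 genes, where its cluster's median was 5593 UMIs, with 262 UMIs of Isg15, 243 of Irf1, 551 of the interferon gamma-inducible chemokine Cxcl9 and 285 of Cxcl10. Its B2m level was 10968 and its Tap1 level 1741 CPM, it had 94 UMIs of the follicle keratin Krt17, and it had none of Ptprc, Cd3e or Cd207. With this cell, NP upper follicle-like cells had 80.4 CPM of Isg15 and 82.7 of Irf1; without it they had 20.4 and 27.1. The dpp6 to NP ratio of Isg15 in this class was -0.73 with the cell and 1.23 without it, so 1 cell turned the direction. The dpc16 to NP ratio of Irf1 was -2.78 with it and -1.19 (interval -1.71 to -0.75) without it. Whether it was a doublet was not tested.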

How the data were processed

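Bulk RNA was measured in 9 libraries and single cells in 4. Per the submitters' processing notes, cutadapt 1.14, TopHat2, Cufflinks 2.2.1, Cuffdiff and Cell Ranger 2.2.0 were used with the mouse build mm10, with no roles or order given. The authors deposited FPKM for 21950 genes, and what scaled libraries to each other is not stated. For single cells the authors deposited UMI counts, unnormalized whole numbers over 28693 genes. Columns headed WT were taken as dpc16, because the other headings name NP and cKO. Libraries are numbered by column.

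Bulk tests used log2(FPKM + 1), on which low genes show too small a change. Genes averaging 1 FPKM or more across 9 libraries, 11497 in number, entered 1 two-sided limma fit (version 3.58.1, R 4.3.3) of 3 group means with a trend, with Benjamini-Hochberg adjustment and a threshold of 0.05. Cells needed 200 genes or more and no more than 10% of UMIs from mitochondrial genes. They were clustered with scanpy 1.11.5 in Python 3.11.15 (2000 variable genes, 30 components, 15 neighbours, Leiden resolution 1, leidenalg 0.10.2, seed 1), leaving out 174 member and pathway genes. Scrublet called 0 doublets, so it did not work here and none was removed. A cluster was named from at least 3 detected markers. UMIs were summed per class and library and given as CPM, and genes with at least 10 CPM were compared. Ratios add 0.5 CPM to both values.

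The limma fit and the single-cell ratios with their intervals were tested on simulated data. All 31 members are named. Values of every bulk library are given for members past the threshold, for the 2 with the smallest unadjusted p in each role group and for its most abundant member. From each pathway list but 1, which is not reported here, genes past the threshold are named, and otherwise up to 2 with the smallest p. Single-cell values follow the 2 most abundant members of a group and those past 1.5-fold in basal cells. Other genes given with values were chosen after these were seen. The members and lists were chosen with earlier results of these data known.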

Additional observations from a re-analysis of the deposited data

How the results depend on the processing

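Of 137 alternative values for the counts, medians and levels, 116 stayed within their limits. Part of them could not differ. A bulk difference or median is fixed with only the 6 libraries compared, with no trend and with the replicate block. It is also fixed when a library of the group not compared is left out. These tallies thus overstate how stable the values are. The limits for the bulk medians were 0.33, 0.13 and 0.29 on the log2 scale, wider than the medians themselves. A median could thus change sign within them, as that of cKO against WT dpc16 did with quantile scaling (-0.05). Of 54 values for the called members, 29 kept the call, 25 lost it and 0 changed sign, which under those same settings they could not do. The 1 member called in cKO against WT dpc16 became 0 with no filter on low FPKM, with only the 6 libraries compared and with no trend. The 2 called in cKO against NP became 1 with no filter, 0 with 6 libraries and 0 with no trend. The cause was not tested, but the fits of 6 libraries hold fewer samples. Leaving out 1 library at a time gave 0 to 1 members called in cKO against WT dpc16, 0 to 1 in cKO against NP, and 0 in WT dpc16 against NP in every case. The medians then lay between -0.12 and 0.18, -0.16 and 0.04, and -0.15 and 0.03. Ifitm3 lay between -1.24 and -0.88 against WT dpc16 and between -1.01 and -0.65 against NP, and Ifi27 between -0.88 and -0.63 against NP. Quantile scaling changed the sign of 5 of 26 members and median-ratio scaling of 4 in WT dpc16 against NP. Leaving out 1 library changed the sign of up to 5 members in cKO against WT dpc16, 7 in WT dpc16 against NP and 7 in cKO against NP, so directions of small differences are uncertain in all 3 contrasts. Isg15 was found in 2.36% of cells at 2000 UMIs, 4.49% at 4000 and 6.03% unthinned. The 13 members higher in basal than in spinous cells became 12 with at most 5% mitochondrial UMIs, and 9 at Leiden resolution 0.5 and 9 at resolution 2. Over 9 same-numbered pairs the correlation of deviations was -0.212 to 0.357, above 0.1 in 2. Same-numbered pairs of WT dpc16 and cKO had 0.312, 0.0692 and 0.357, and differently numbered ones lay between -0.335 and 0.0910. Same-numbered pairs with NP lay between -0.212 and 0.0385. Whether the column number pairs the dpc16 libraries was not tested. With the number as a replicate block, 1, 0 and 2 members were called in cKO against WT dpc16, WT dpc16 against NP and cKO against NP. The medians stayed at 0.02, -0.06 and -0.07, which this block cannot change. Ifitm3 had an adjusted p of 0.0205 against WT dpc16. Leaving out the NP cell and adding the cluster led by Tgm3, Thy1 and Pyy were chosen after seeing the data. With that cluster, the basal dpc16 median was -0.12, and it was -0.09 at Leiden resolution 0.5 and -0.32 with all genes clustered. The bulk depth is unknown, and 1 single-cell library a state gives no replicate error.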
